A study of Mus musculus with 8 samples.

Results

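The 10 genes described here, Mmp12, Spp1, Gpnmb, Itgax, Atp6v0d2, Lgals3, Trem2, Cd9, Fabp5 and Acp5, encode proteins of lipid-laden macrophages and of osteoclasts, the bone-resorbing cells. They were taken from the count table by gene symbol, and each of the 10 symbols matched 1 of the 27304 genes listed. The set was put together with its levels in these hearts in view, so the differences between diets given for the 10 genes describe the libraries and carry no p-value. RNA of whole hearts was sequenced in bulk from male mice of the inbred strain 129/Sv, without a transgene or deletion in any label. The Adenine group, 4 libraries, ate a diet with 0.15% adenine for 13 weeks, which injures the kidney and is used as a model of chronic kidney disease. The Sham group, 4 libraries, ate a standard diet for the same 13 weeks, and its treatment label is control diet although its title is Sham. The labels do not say that each library came from its own animal, so the spread between libraries may be technical.

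Macrophages that take up lipid or cell debris, and macrophages that fuse into osteoclasts, switch on overlapping sets of genes for phagocytosis, acid secretion into vacuoles or bone, and remodelling of matrix. TREM2 is a surface receptor for lipids and lipoproteins that signals through the adaptor TYROBP, and genes such as Gpnmb, Spp1, Lgals3, Cd9 and Fabp5 are widely used as markers of lipid-associated macrophages. The heart holds its own resident macrophages, and monocytes from the blood can add to them after injury. In bulk tissue, more cells of a type and more RNA per cell cannot be told apart.

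Levels are in CPM, that is, read counts scaled to the size of the library, here with TMM factors, which correct for differences in RNA composition. Adenine libraries held 15626620 to 29831706 counts in total and Sham libraries 24107554 to 33886385, so that 1 CPM stood for 16 reads in the shallowest library and 34 in the deepest. The library Adenine 3 stood apart from the other Adenine libraries in its immune transcripts. The summed level of 12 macrophage identity genes, among them Adgre1, Csf1r, Cd68 and Lyz2, was 2480 CPM in Adenine 3 and 230 to 371 CPM in Adenine 1, 2 and 4, against 277 to 475 CPM in the Sham libraries. All 12 were highest in Adenine 3 of all 8 libraries, with Lyz2 alone at 2070 CPM. The summed level of 8 monocyte markers was 707 CPM in Adenine 3 and 83.7 to 118 CPM in Adenine 1, 2 and 4, against 93.5 to 131 CPM in Sham. Cardiomyocyte markers, which mark the labelled tissue, summed to 30700 CPM in Adenine 3 and 45100 to 52600 CPM in Adenine 1, 2 and 4, against 44700 to 57100 CPM in Sham. Fold changes are therefore given with all libraries and without Adenine 3, and the part of macrophage number in them was not tested.

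Promoter sequence is shown for 6 of the 10 genes, all with a match to a motif marked below. Of these, the levels of Mmp12, Spp1, Gpnmb and Itgax separated the diets, those of Trem2 did not, and Acp5 lay in between. The windows of Lgals3, whose levels separated the diets too, and of Cd9 held no match and are not shown. Further windows of Spp1 and Acp5 without a match are left out as well. Each stretch runs 5′ to 3′ in the direction of the gene, from 130 bases before the transcription start to 20 bases from it, 150 bases in all, from RefSeq on GRCm38.p6. The windows came with a symbol for 8 of the 10 genes. Capitals mark matches to 3 motifs that were chosen after the sequences had been seen.
Mmp12, chr9:7347244-7347393, plus strand: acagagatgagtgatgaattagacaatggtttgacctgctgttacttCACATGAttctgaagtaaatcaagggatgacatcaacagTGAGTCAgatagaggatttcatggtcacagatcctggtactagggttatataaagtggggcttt
Spp1, chr5:104434981-104435130, plus strand: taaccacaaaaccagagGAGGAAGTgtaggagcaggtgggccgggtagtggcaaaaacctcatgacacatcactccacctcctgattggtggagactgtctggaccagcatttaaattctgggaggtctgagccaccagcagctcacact
Gpnmb, chr6:49036388-49036537, plus strand: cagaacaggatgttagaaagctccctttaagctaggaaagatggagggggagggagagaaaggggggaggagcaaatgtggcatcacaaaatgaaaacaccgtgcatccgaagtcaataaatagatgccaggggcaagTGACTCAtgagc
Itgax, chr7:128129420-128129569, plus strand: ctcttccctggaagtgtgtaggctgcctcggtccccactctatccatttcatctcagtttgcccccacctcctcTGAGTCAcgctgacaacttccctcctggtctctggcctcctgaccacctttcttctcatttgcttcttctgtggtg
Trem2, chr17:48346271-48346420, plus strand: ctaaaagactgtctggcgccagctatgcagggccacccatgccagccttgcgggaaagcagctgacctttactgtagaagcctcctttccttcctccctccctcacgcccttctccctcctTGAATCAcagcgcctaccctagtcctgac
Acp5, chr9:22130579-22130728, minus strand: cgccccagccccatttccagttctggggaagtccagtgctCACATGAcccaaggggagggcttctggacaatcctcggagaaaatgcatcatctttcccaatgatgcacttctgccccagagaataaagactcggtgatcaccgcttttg

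The motifs were searched on both strands in windows of 250 bases before to 50 bases after a start. The 8 genes had 12 such windows. TGANTCA, the AP-1 site, lay in 4 of the 12, each of a different gene, against 7.81% of all 32851 windows. Counted from the start, it lay at position -44 in Mmp12, -56 in Itgax, -9 in Trem2 and 9 in Gpnmb. GAGGAAGT, a PU.1 site, lay in 2 of the 12 windows, against 3.2% of all windows. The matches were at -113 in Spp1 and at -88 in the upstream window of Mmp12, which is not shown. TCATGTG, an M-box read by the MITF and TFE factors, lay in 2 of the 12 windows, against 3.77% of all windows. It was found at -83 in Mmp12 and at -90 in Acp5, both on the reverse strand. TCACGTG, the CLEAR site of lysosomal genes, lay in 0 of the 12 windows, against 3.77% of all windows. No match overlapped a match of another motif. Mmp12 and Trem2 both carried the AP-1 letters, although only the levels of Mmp12 separated the diets.

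6 of the 10 genes, Mmp12, Spp1, Gpnmb, Itgax, Atp6v0d2 and Lgals3, were higher in all 4 Adenine libraries than in any Sham library. Over all 20093 genes tested, 3.45% had their 4 Adenine libraries above all 4 Sham libraries and 3.84% had them below, and since the 10 genes were picked on this contrast, nothing is read from their count. Acp5 separated in 3 of 4 Adenine libraries. Trem2, Cd9 and Fabp5 were above the Sham range in Adenine 3 only. The highest level of every one of the 10 genes was in Adenine 3. The lowest Adenine level was in Adenine 4 for 8 genes and in Adenine 2 for Cd9 and Fabp5.

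**Figure D1:**
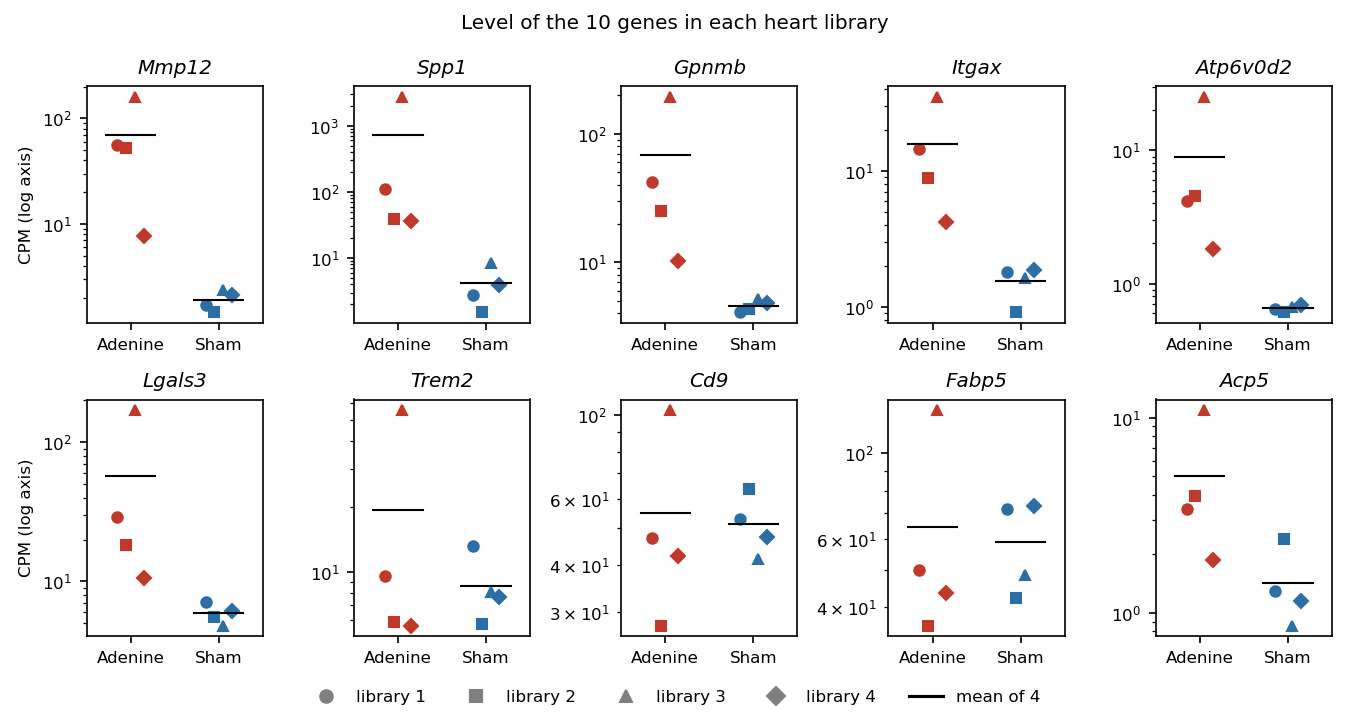
Level of each of the 10 genes in CPM (log axis) in the 4 Adenine libraries (red) and the 4 Sham libraries (blue), with symbols for the library number and a bar at the mean of 4. Adenine 3 is the highest point in every panel, and in the panels of Mmp12, Spp1, Gpnmb, Itgax, Atp6v0d2 and Lgals3 no red point lies as low as a blue one.

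Of the secreted proteins, Mmp12 and Spp1 had the largest log2 fold changes of the 10 genes. Mmp12 (ENSMUSG00000049723; GRCm38 chromosome 9, 7344381 to 7369499, plus strand) encodes the elastin-degrading metalloproteinase of macrophages. Its level was 55.3, 52.2, 160 and 7.70 CPM in Adenine 1 to 4, against 1.71, 1.46, 2.35 and 2.14 CPM in Sham 1 to 4. The 4 Adenine libraries spread over a wide range, with Adenine 4 the nearest to the Sham libraries, which lay close together. The mean was 68.7 ± 64.5 CPM in Adenine and 1.91 ± 0.404 CPM in Sham (SD, n = 4 each). The log2 fold change, Adenine minus Sham, was 5.17 (SE 0.69) in edgeR, and 4.31 (SE 0.46) without Adenine 3. Without Adenine 3 the mean of the Adenine libraries was still 20.1 times the Sham mean.

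Spp1 (ENSMUSG00000029304; chromosome 5, 104435118 to 104441050, plus strand) encodes osteopontin, a secreted phosphoprotein that binds integrins and CD44 and is abundant in bone matrix. Its level was 111, 39.4, 2730 and 36.4 CPM in Adenine 1 to 4, against 2.74, 1.52, 8.46 and 3.94 CPM in Sham 1 to 4. Adenine 3 held 85754 reads of Spp1, and the other 3 Adenine libraries held 644 to 2776. The mean was 729 ± 1330 CPM in Adenine and 4.16 ± 3.03 CPM in Sham (SD, n = 4 each), so the Adenine mean rests mostly on 1 library. The log2 fold change was 7.46 (SE 1.45), and 3.91 (SE 0.45) without Adenine 3. Adenine 3 stood 656 times above the Sham mean, and the mean of the other 3 stood 15 times above it.

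Lgals3 (ENSMUSG00000050335; chromosome 14, 47367751 to 47386160, plus strand) encodes galectin-3, a sugar-binding protein that macrophages release and that gathers on damaged lysosomes. Its level was 28.9, 18.3, 170 and 10.5 CPM in Adenine 1 to 4, against 7.12, 5.56, 4.81 and 6.15 CPM in Sham 1 to 4. The groups did not overlap, although Adenine 4 lay within 4 CPM of the highest Sham library. Between the diets the log2 fold change was 3.27 (SE 0.70), and 1.69 (SE 0.26) without Adenine 3.

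Of the surface proteins, Gpnmb and Itgax separated the diets in every library. Gpnmb (ENSMUSG00000029816; chromosome 6, 49036546 to 49070929, plus strand) encodes a transmembrane glycoprotein of macrophages, osteoclasts and melanocytes that is induced when lysosomes are under load. Its level was 42.4, 25.2, 194 and 10.2 CPM in Adenine 1 to 4, against 4.09, 4.30, 5.14 and 4.78 CPM in Sham 1 to 4. The Sham libraries spanned little more than 1 CPM, and each Adenine library lay clear of them. On the log2 scale the fold change was 3.89 (SE 0.71), and 2.49 (SE 0.32) without Adenine 3.

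Itgax (ENSMUSG00000030789; chromosome 7, 128129547 to 128150657, plus strand) encodes CD11c, an integrin chain of dendritic cells and of macrophages in inflamed fat, which pairs with the beta2 chain ITGB2. Its level was 14.5, 8.87, 35.2 and 4.19 CPM in Adenine 1 to 4, against 1.81, 0.915, 1.64 and 1.87 CPM in Sham 1 to 4. No Adenine library reached down to the Sham range. For Itgax the log2 fold change was 3.34 (SE 0.54), and 2.55 (SE 0.35) without Adenine 3. The summed level of dendritic cell markers was 32.5 CPM in Adenine 3 and 38.1 to 46.9 CPM in Adenine 1, 2 and 4, against 30 to 39.6 CPM in Sham, and Zbtb46, also expressed outside dendritic cells, made up 12.8 to 20.4 CPM of it in Adenine and 13.6 to 25 CPM in Sham. Flt3, a growth factor receptor on the same list, was higher in all 4 Adenine libraries than in any Sham library, with 3.16, 8.5, 3.12 and 4.41 CPM in Adenine 1 to 4, against 1.42, 1.15, 1.83 and 2.83 CPM in Sham 1 to 4. For Flt3 the log2 fold change was 1.40 (SE 0.38), and 1.55 without Adenine 3, with an adjusted p of 0.201 in edgeR and 0.0236 in DESeq2. Flt3 was chosen after its value was seen. Of the 8 tested genes on that list it alone had groups that did not overlap. The list's median log2 fold change was 0.21, and 0.18 without Adenine 3. In 6 of the 8 it was positive, and in Siglech (-0.27) and Zbtb46 (-0.13) it was negative. The part of dendritic cells in the level of Itgax was not tested.

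The remaining surface proteins showed no such separation. Trem2 (ENSMUSG00000023992; chromosome 17, 48346401 to 48354147, plus strand), the lipid receptor, had 9.60, 5.87, 55.7 and 5.65 CPM in Adenine 1 to 4, against 13.1, 5.76, 8.08 and 7.64 CPM in Sham 1 to 4. Outside Adenine 3 the Adenine libraries lay within or just below the Sham range. Its log2 fold change of 1.16 (SE 0.62) turned to -0.30 (SE 0.26) without Adenine 3. Cd9 (ENSMUSG00000030342; chromosome 6, 125460266 to 125494791, minus strand), a tetraspanin that organises membrane patches and limits macrophage fusion, had 47.1, 27.6, 103 and 42.2 CPM in Adenine 1 to 4, against 53.1, 63.6, 41.5 and 47.6 CPM in Sham 1 to 4. Many cell types of the heart express Cd9. For Cd9 the log2 fold change was 0.10 (SE 0.31), and -0.41 (SE 0.19) without Adenine 3.

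Of the proteins of acid compartments, Atp6v0d2 (ENSMUSG00000028238; chromosome 4, 19876841 to 19922605, minus strand) encodes the d2 subunit of the vacuolar proton pump, used by osteoclasts for fusion and acid secretion. Its level was 4.20, 4.52, 25.3 and 1.83 CPM in Adenine 1 to 4, against 0.645, 0.610, 0.671 and 0.688 CPM in Sham 1 to 4. The Sham values rested on 18 to 20 reads a library and the Adenine values on 49 to 795. The groups did not overlap, and the log2 fold change was 3.78 (SE 0.70), and 2.40 (SE 0.37) without Adenine 3. Acp5 (ENSMUSG00000001348; chromosome 9, 22126727 to 22135711, minus strand) encodes the tartrate-resistant acid phosphatase used to stain osteoclasts. Its level was 3.40, 3.97, 10.9 and 1.87 CPM in Adenine 1 to 4, against 1.29, 2.37, 0.857 and 1.15 CPM in Sham 1 to 4. Adenine 4 lay below Sham 2, and the other 3 Adenine libraries lay above all Sham libraries. Its log2 fold change was 1.83 (SE 0.50), and 1.09 (SE 0.39) without Adenine 3.

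Fabp5 (ENSMUSG00000027533; chromosome 3, 10012548 to 10016607, plus strand) encodes a fatty acid binding protein of macrophages, endothelium and skin. Its level was 49.9, 35.9, 129 and 43.6 CPM in Adenine 1 to 4, against 71.9, 42.2, 48.4 and 73.2 CPM in Sham 1 to 4. Only Adenine 3 was above the Sham libraries, and Adenine 2 was below them. The log2 fold change was 0.13 (SE 0.35), and -0.46 (SE 0.20) without Adenine 3. Several annotated copies of Fabp5 match a 175-base stretch of it at 94.9% to 99.4%, and an annotated copy of Cd9 matches 664 bases at 90.7%. None of these copies has a row of its own in the table, so reads that fit both cannot be assigned, and the levels of Fabp5 and Cd9 are uncertain to that extent. The longest transcript of Mmp12 holds a stretch that many annotated transcripts share at 90.1% to 93.4% over up to 818 bases, most of them without a row in the table, so the level of Mmp12 carries a like uncertainty.

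Exons of Mmp12 share 157 bases with Mmp1b on the other strand. No source used here says whether reads were counted by strand, but Mmp1b held 39 reads over all 8 libraries. Exons of Acp5 and Cd9 share 137 and 218 bases with genes on the opposite strand, and those of Spp1 share 309 bases with a gene on the same strand. For these 3 genes, too, reads of the partner cannot be told apart.

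Across all genes, edgeR's quasi-likelihood test called 0.0398% of 20093 genes higher at an adjusted p under 0.05 (8 genes, Benjamini-Hochberg), and 1 of the 10 genes, Mmp12, was among them. Without Adenine 3 it called 0.178% of 20824 genes higher, and Mmp12, Spp1, Gpnmb, Itgax, Atp6v0d2 and Lgals3 were among those. The DESeq2 Wald test called 0.761% of genes higher and 0.871% lower, and Mmp12, Gpnmb, Itgax, Atp6v0d2, Lgals3 and Acp5 were among those higher, while DESeq2 gave no adjusted p for Spp1 and Trem2. These counts describe genes picked on the same contrast. The median log2 fold change of the 10 genes was 3.31, and 2.05 without Adenine 3, beside 0.05 and 0.06 over all genes tested.

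**Figure D2:**
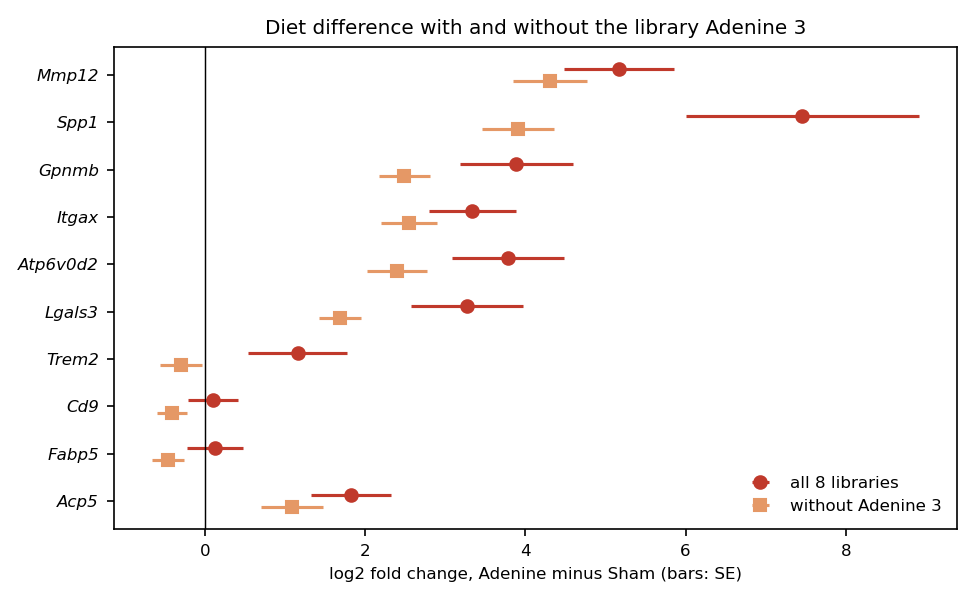
Log2 fold change, Adenine minus Sham, of each of the 10 genes from edgeR, with bars of 1 SE, for all 8 libraries (circles) and without Adenine 3 (squares). Spp1 moves from 7.46 with all libraries to 3.91 without Adenine 3, Mmp12 from 5.17 to 4.31, and Trem2, Cd9 and Fabp5 cross 0.

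Levels per length of the principal transcript allow the genes to be ordered within a diet. In the Adenine libraries the means per kilobase ran from Spp1 (484 CPM per kilobase) through Fabp5 (65.4), Cd9 (44.8), Lgals3 (40.2), Mmp12 (19.1), Gpnmb (18.3), Trem2 (17.6), Itgax (3.88) and Atp6v0d2 (3.53) to Acp5 (3.48). In the Sham libraries the means per kilobase ran from Fabp5 (59.7 CPM per kilobase) through Cd9 (41.9), Trem2 (7.95), Lgals3 (4.16), Spp1 (2.76), Gpnmb (1.24), Acp5 (0.979), Mmp12 (0.530) and Itgax (0.385) to Atp6v0d2 (0.257). Every pair of neighbours in the Adenine order had ranges that overlapped. In the Sham order only Cd9 and Trem2, and Trem2 and Lgals3, were neighbours whose ranges did not overlap. Mmp12 stood at place 5 in Adenine hearts and at place 8 in Sham hearts by mean, and Spp1 at place 1 in Adenine hearts and place 5 in Sham hearts.

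The 10 levels were next set against the macrophage genes of the same library. The mean log2 level of the 12 macrophage identity genes, relative to the Sham mean, was 0.03, -0.15, 2.11 and -0.36 in Adenine 1 to 4, against 0.38, -0.23, -0.13 and -0.02 in Sham 1 to 4. Outside Adenine 3 the Adenine libraries thus lay in or just below the Sham range. Divided by that level, 6 of the 10 genes lay above every Sham library in all 4 Adenine libraries. The share of all genes that do so on this scale was not computed. Since the 10 genes were picked on this contrast, nothing is read from that count. The log2 ratio of Mmp12 was 4.84, 4.93, 4.28 and 2.38 in Adenine 1 to 4, against -0.52 to 0.44 in Sham. Adenine 3 was not the highest library for Mmp12 on this scale.

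The log2 ratio of Itgax was 3.23, 2.7, 2.42 and 1.83 in Adenine 1 to 4, against -0.48 to 0.34 in Sham, again with Adenine 3 below Adenine 1. The ratio of Gpnmb was 3.18, 2.61, 3.29 and 1.51 in Adenine 1 to 4, against -0.53 to 0.30 in Sham, and that of Atp6v0d2 was 2.63, 2.91, 3.13 and 1.83, against -0.40 to 0.17 in Sham. Both were highest in Adenine 3 and lowest in Adenine 4 on this scale. For both, Adenine 3 lay nearer to Adenine 1 and to Adenine 2 than it did in log2 CPM. The ratio of Lgals3 was 2.28, 1.79, 2.75 and 1.21 in Adenine 1 to 4, against -0.16 to 0.15 in Sham. Spp1 kept its peak in Adenine 3, with ratios of 4.98, 3.66, 7.51 and 3.76 in Adenine 1 to 4, against -0.94 to 1.42 in Sham.

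Trem2, itself a macrophage gene, had ratios near 0. Its log2 ratio was 0.19, -0.34, 0.64 and -0.19 in Adenine 1 to 4, against -0.29 to 0.29 in Sham. Cd9 and Fabp5 had their lowest ratios in Adenine 3, at -1.09 and -0.94, against -0.31 to 0.55 and -0.21 to 0.38 in Sham. The ratio of Acp5 was 1.33, 1.73, 0.92 and 0.86 in Adenine 1 to 4, against -0.48 to 1.07 in Sham, so that 2 Adenine libraries lay above the Sham range. The ratios use the same libraries as the levels and are a description too.

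**Figure D3:**
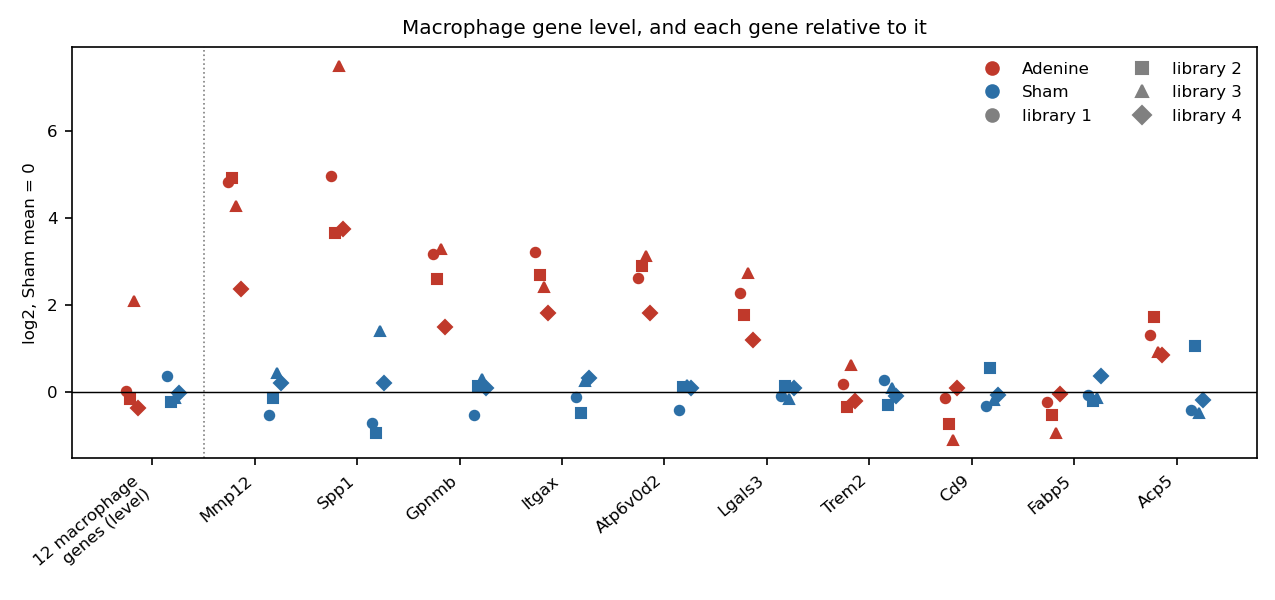
Left of the dotted line, the mean log2 level of 12 macrophage identity genes in each library; right of it, the log2 level of each of the 10 genes minus that mean, all with the Sham mean at 0 (Adenine red, Sham blue, symbols for the library number). The macrophage level is raised in Adenine 3 (2.11), whereas Mmp12 relative to it is 2.38 to 4.93 in the red points and -0.52 to 0.44 in the blue ones.

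The profiles of the 10 genes over the 8 libraries were then compared with each other. Likeness was measured as the root mean square difference, in log2 units, of profiles centred on the Sham mean, where 0 is an identical profile. Gpnmb and Atp6v0d2 were the closest pair at 0.27, Itgax lay 0.42 and Lgals3 0.51 from Atp6v0d2, and Acp5 lay 0.83 from Lgals3. Cd9 and Fabp5 were a pair at 0.34, with Trem2 0.62 from Fabp5. Mmp12 lay 1.12 from Gpnmb, its nearest member, and Spp1 lay 1.40 from Mmp12, since both reached larger differences than the rest. The median profile of the 10 genes was 2.48, 2.05, 4.70 and 1 log2 units above the Sham mean in Adenine 1 to 4, against -0.23 to 0.08 in Sham.

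Among 16012 other genes that averaged 1 CPM or more, the profile nearest to that median was that of Rgs1, a regulator of G protein signalling in leukocytes, at 0.31. It had 2.12, 3.36, 10.8 and 0.897 CPM in Adenine 1 to 4, against 0.440 to 0.535 CPM in Sham. Next came Clec4d at 0.45, Adam8 at 0.47, Sprr1a at 0.49, Il7r at 0.61, F10 at 0.63, Dhrs9 at 0.66 and Tent5b at 0.69. Clec4d encodes a C-type lectin of myeloid cells, Adam8 a membrane protease of leukocytes and F10 coagulation factor X. F10 is also on the list of monocyte markers, and DESeq2 called it higher (adjusted p = 0.000749), while edgeR did not (0.118). Il1rn, which encodes the antagonist of the interleukin-1 receptor, was nearest to both Spp1 (1.76) and Mmp12 (1.13), with 3.28, 4.04, 49.8 and 1.5 CPM in Adenine 1 to 4, against 0.373 to 0.677 CPM in Sham. Dhrs9 at 2.21 and Sprr1a at 2.28 followed for Spp1, and Rgs1 at 1.47 and Dhrs9 at 1.60 followed for Mmp12. These genes were picked for their likeness over the same 8 libraries.

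**Figure D4:**
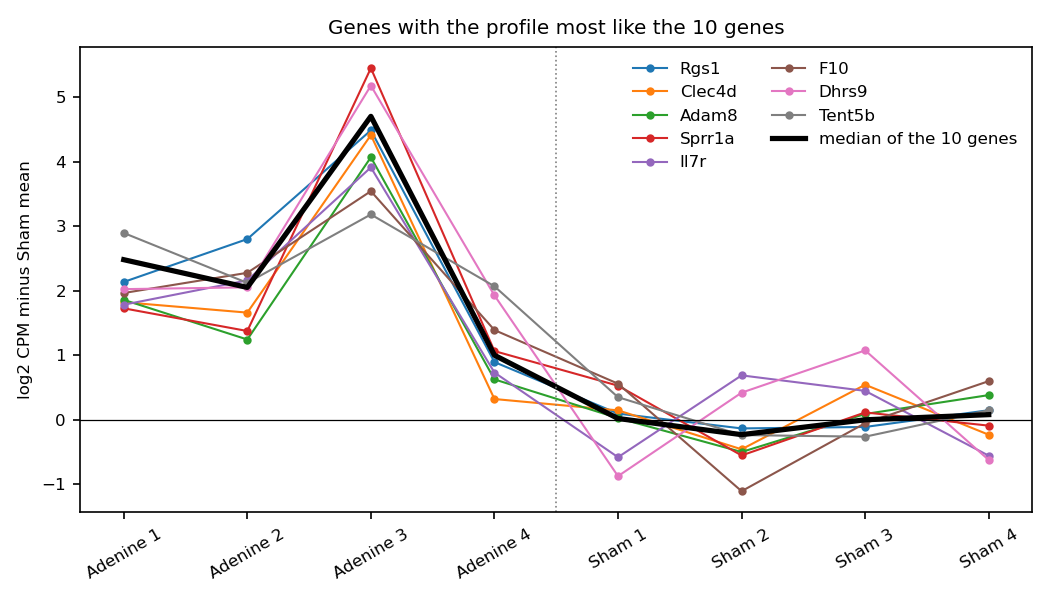
Log2 CPM minus the Sham mean (vertical axis) in the 4 Adenine and 4 Sham libraries for the median of the 10 genes (black) and the 8 other genes with the most similar profile (colours). The median peaks at 4.70 in Adenine 3 and is lowest among the Adenine libraries at 1 in Adenine 4, and lines only join the libraries of 1 gene.

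Partners of the 10 genes were read from 14 lists that hold 157 other genes, of which 153 were tested. edgeR called 0 of them higher and 0 lower, with a lowest adjusted p of 0.142, and limma-voom called 0 in either direction. At an unadjusted p under 0.05 edgeR had 26 higher (17%, against 10.9% of all genes) and 9 lower (5.88%, against 6.63% of all genes). DESeq2 called 2 higher (1.31%) and 3 lower (1.96%), beside its 0.761% and 0.871% over all genes. It gave no adjusted p for some of the 153, among them Tyrobp, Lyz2, Msr1, Cd52 and Cd53. Genes without an adjusted p count as not called in these shares. The groups did not overlap for 8 that were higher in Adenine (5.23%) and 5 that were lower (3.27%), beside 3.45% and 3.84% of all genes. The median log2 fold change over the 153 was 0.24, and -0.09 without Adenine 3, far under the 3.31 and 2.05 of the 10 genes, which were picked on this contrast.

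The partners of TREM2 did not pass the test. Tyrobp, its signalling adaptor, had 15.7, 12.5, 96.2 and 9.50 CPM in Adenine 1 to 4, against 18.4, 11.1, 15.1 and 13.6 CPM in Sham 1 to 4, with Adenine 3 alone above the Sham range as for Trem2 itself. Its log2 fold change was 1.21 (SE 0.59; edgeR adjusted p = 0.300), and -0.22 without Adenine 3. The 2 genes of lowest p on the list were Syk, the kinase downstream, with 0.59 (SE 0.20), and 0.38 without Adenine 3, and Ms4a4a, a membrane protein that modulates TREM2, with 1.77 (SE 0.64), and 0.54 without Adenine 3. Apoe, a lipoprotein ligand of TREM2, had a log2 fold change of -0.47 (SE 0.28), and -0.67 without Adenine 3. The list's median was 0.43, and -0.05 without Adenine 3.

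Lipid uptake genes had a median of 0.31, and 0.13 without Adenine 3. Msr1, a scavenger receptor, had a log2 fold change of 2.09 (SE 0.69), which was 0.37 without Adenine 3. Marco, another scavenger receptor, had 1.11 (SE 0.37), and 1.16 without Adenine 3, and its groups did not overlap, though it stayed under 3 CPM in every library. Lpl, the lipoprotein lipase, had 0.20 (SE 0.19), and 0.24 without Adenine 3. Among the other fatty acid binding proteins Fabp4, that of fat cells and endothelium, had 0.14 (SE 0.22), Fabp6 0.99 (SE 0.51) and Fabp7 -1.07 (SE 0.35). Without Adenine 3 these were 0.09 for Fabp4, 1.23 for Fabp6 and -1.27 for Fabp7. Fabp6 had no more than 1.04 CPM in any library, and Fabp7 no more than 2.74 CPM. None of these lipid uptake and fatty acid binding genes passed (edgeR adjusted p of 0.235 or more).

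The lipid-associated macrophage genes outside the 10 had a median of 0.30, and -0.27 without Adenine 3. Cd52, a small glycoprotein of leukocytes, was the exception in its shape, with 5.04, 3.67, 33.6 and 2.84 CPM in Adenine 1 to 4, against 2.64, 1.93, 2.12 and 2.10 CPM in Sham 1 to 4. Its groups did not overlap, and its log2 fold change was 2.37 (SE 0.66; edgeR adjusted p = 0.213), and 0.80 without Adenine 3. Capg, an actin-capping protein of macrophages, had 0.84 (SE 0.36), and 0.23 without Adenine 3. The macrophage identity list had a median of 0.83, and -0.14 without Adenine 3. Its lowest p values were those of Itgb2, at 1.44 (SE 0.49), and 0.54 without Adenine 3, and Cd14, at 1.25 (SE 0.53), and 0.03 without Adenine 3. Cd68 had 15, 10.2, 57.0 and 6.36 CPM in Adenine 1 to 4, against 16.5, 9.89, 9.39 and 10.9 CPM in Sham 1 to 4, with a log2 fold change of 0.93 (SE 0.52), and -0.17 without Adenine 3.

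Of the osteoclast genes, 1 passed in DESeq2 and 0 in edgeR. The differentiation and fusion list had a median of 0.34, and 0.09 without Adenine 3. Dcstamp, the membrane protein needed for fusion of osteoclasts and giant cells, had 1.92, 2.02, 1.94 and 0.785 CPM in Adenine 1 to 4, against 0.322, 0.203, 0.447 and 0.612 CPM in Sham 1 to 4. The groups did not overlap, and Adenine 3 did not stand out for this gene. Its log2 fold change was 2.07 (SE 0.47), and 1.97 without Adenine 3, with an adjusted p of 0.142 in edgeR and 0.00451 in DESeq2. Oscar, an osteoclast receptor, had 0.98 (SE 0.40), and 1.20 without Adenine 3.

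Ocstamp and Calcr, chosen for display after their values were seen, were low in every library. Ocstamp, a second fusion protein, had 0.640, 1.28, 0.159 and 0.411 CPM in Adenine 1 to 4, against 0.645, 0.339, 0.335 and 0.459 CPM in Sham 1 to 4. Calcr, the calcitonin receptor, had 0.560, 1.65, 0.955 and 1.31 CPM in Adenine 1 to 4, against 0.774, 0.373, 1.01 and 0.994 CPM in Sham 1 to 4. The groups overlapped for both. The bone resorption list had a median of 0.03, and -0.13 without Adenine 3. Its collagenase Ctsk had 15.7, 6.85, 49.1 and 10.3 CPM in Adenine 1 to 4, against 18.6, 10.5, 14.1 and 11.7 CPM in Sham 1 to 4, and Tcirg1, the osteoclast form of a proton pump subunit, had a log2 fold change of 0.58 (SE 0.31), and 0.06 without Adenine 3. For Ctsk it was 0.59 (SE 0.47), and -0.32 without Adenine 3. Neither passed (edgeR adjusted p = 0.462 for Ctsk and 0.329 for Tcirg1).

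The other proton pump subunits had a median of 0.02, and -0.15 without Adenine 3. Atp6v0d1, the widely expressed counterpart of Atp6v0d2, had a log2 fold change of -0.01 (SE 0.15), and -0.08 without Adenine 3, with 27.5, 21.0, 29.3 and 26.1 CPM in Adenine 1 to 4, against 29.2, 27.8, 22.6 and 25.4 CPM in Sham 1 to 4. Atp6v1c2 had 1.15 (SE 0.49), and 1.42 without Adenine 3, Atp6v0e2 had -0.72 (SE 0.24), and -0.71 without Adenine 3, and neither passed. Transcription factors of the MITF and TFE family, which drive lysosomal genes, had a median of -0.02, and -0.04 without Adenine 3, with 0.57 (SE 0.42) for Tfec and -0.12 (SE 0.16) for Tfeb. Without Adenine 3 Tfec had 0.00 and Tfeb -0.05.

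The receptors of osteopontin had a median of 0.17, and -0.10 without Adenine 3. Cd44 had 11.2, 9.84, 41.7 and 9.35 CPM in Adenine 1 to 4, against 11.6, 9.86, 7.94 and 10.5 CPM in Sham 1 to 4, again with only Adenine 3 apart, and its log2 fold change of 0.86 (SE 0.41) was 0.01 without Adenine 3. Itga8 and Itgb6, integrin chains of receptors for osteopontin and other matrix ligands, had log2 fold changes of -1.41 (SE 0.39) and -0.80 (SE 0.24), and without Adenine 3 of -1.19 and -0.64. DESeq2 called both lower (adjusted p = 0.0192 for Itga8 and 0.048 for Itgb6), and edgeR called neither (0.213 and 0.216). The groups overlapped for Itga8, with 4.24, 7.03, 2.61 and 7.48 CPM in Adenine 1 to 4, against 13.7, 25.6, 10.2 and 6.84 CPM in Sham 1 to 4. Those of Itgb6 did not overlap, though Adenine 2 and Sham 4 both rounded to 12.5 CPM.

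Among the other metalloproteinases and their inhibitors the median was 0.24, and 0.12 without Adenine 3. Timp1, an inhibitor of metalloproteinases, had 19.2, 5.99, 83.1 and 9.91 CPM in Adenine 1 to 4, against 7.19, 5.69, 4.69 and 3.33 CPM in Sham 1 to 4, with 3 Adenine libraries above the Sham range and Adenine 2 within it. Its log2 fold change was 2.5 (SE 0.65; edgeR adjusted p = 0.182), and 1.16 without Adenine 3. Mmp15, a membrane-bound metalloproteinase, had 55.6, 51.9, 28 and 66.6 CPM in Adenine 1 to 4, against 109, 112, 90.1 and 86.1 CPM in Sham 1 to 4. All 4 Adenine libraries were below all Sham libraries, the opposite of Mmp12, and the log2 fold change was -0.97 (SE 0.22), and -0.78 without Adenine 3, with an adjusted p of 0.142 in edgeR and 0.00424 in DESeq2.

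Relatives of Lgals3, Cd9 and Itgax complete the lists. The other galectins had a median of 0.09, and -0.25 without Adenine 3. Lgals4 had 1.05 (SE 0.36) and Lgals7 1.22 (SE 0.57), and both had 1.28 without Adenine 3. Lgals7 had no more than 0.795 CPM in any library. The tetraspanins and partners of Cd9 had a median of -0.08, and -0.29 without Adenine 3. Among them Cd53, a leukocyte tetraspanin, had 1.55 (SE 0.61) and Cd82 -0.52 (SE 0.21). The level of Cd53 was 7.56, 7.46, 58.8 and 6.47 CPM in Adenine 1 to 4, against 5.39 to 7.77 CPM in Sham, and its log2 fold change without Adenine 3 was 0.04, while that of Cd82 was -0.64. The beta2 integrins and myeloid adhesion genes had 0.71, and 0.15 without Adenine 3. Itgad, the chain CD11d and a neighbour of Itgax in the integrin family, had 3.24, 6.42, 2.67 and 3.81 CPM in Adenine 1 to 4, against 1.77, 1.02, 1.94 and 2.03 CPM in Sham 1 to 4, and was lowest in Adenine 3 among the Adenine libraries. Its log2 fold change of 1.25 (SE 0.34), and 1.39 without Adenine 3, passed with all libraries in DESeq2 (adjusted p = 0.0228) and not in edgeR (0.198).

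**Figure D5:**
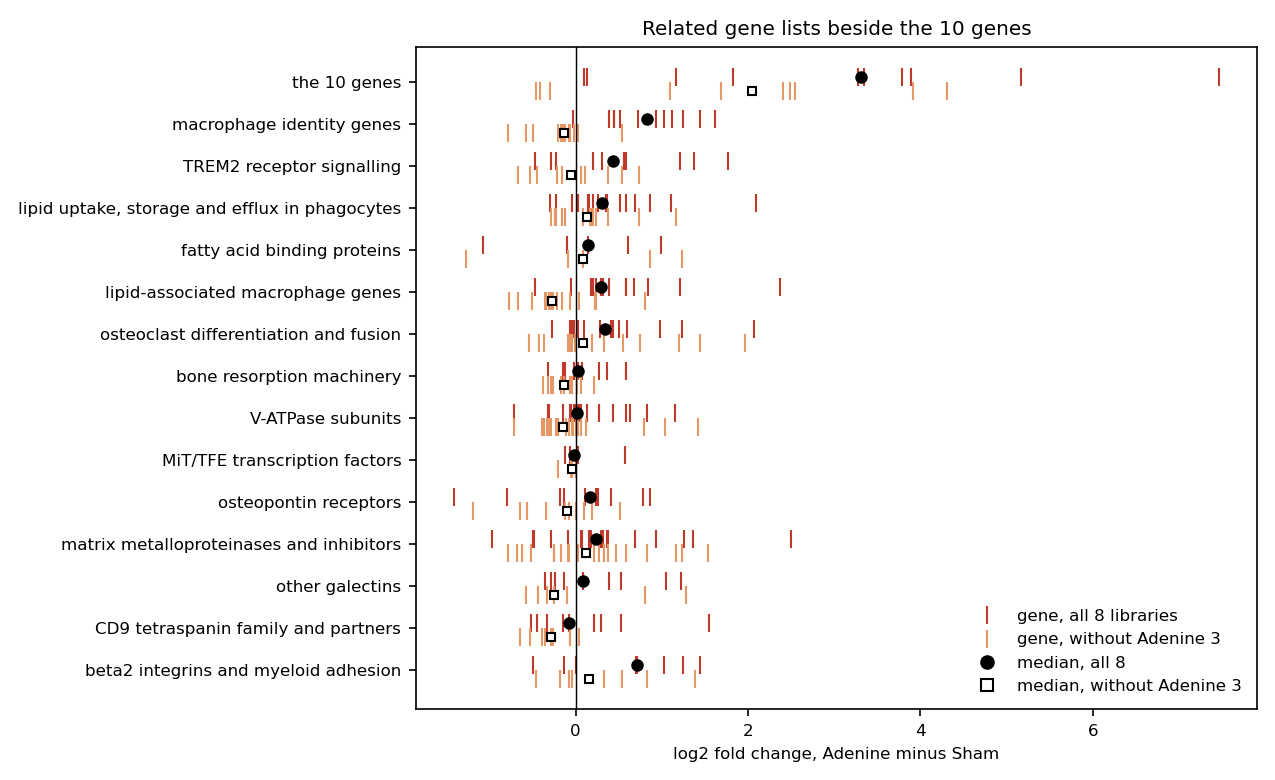
Log2 fold change, Adenine minus Sham, of every tested gene of the 14 lists and of the 10 genes, as ticks (red with all 8 libraries, orange without Adenine 3), with the median of each list as a circle and, without Adenine 3, as a square. The medians of the lists lie between -0.08 and 0.83 with all libraries, and that of the 10 genes at 3.31.

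Markers of other cells that express some of the 10 genes were read in the same libraries, and their part in the levels was not tested. Melanocyte markers, a type that expresses Gpnmb, summed to 12.7 CPM in Adenine 3 and 18.3 to 26.2 CPM in Adenine 1, 2 and 4, against 14.2 to 19.5 CPM in Sham. Osteoblast and mineralisation markers, a type that expresses Spp1, summed to 389 CPM in Adenine 3 and 169 to 287 CPM in Adenine 1, 2 and 4, against 248 to 393 CPM in Sham. Most of that sum was Mgp, which other cells express too, with 342 CPM in Adenine 3 and 114 to 232 CPM in Adenine 1, 2 and 4, against 199 to 342 CPM in Sham. The median log2 fold change of the list was 0.49, and 0.78 without Adenine 3. With all libraries 7 of its 12 tested genes were positive. Sp7, Dmp1 and Ibsp, which are known for bone cells, had 1.20 (SE 0.51), 1.22 (SE 0.49) and 1.24 (SE 0.61). They had no more than 4.34 CPM in any library and their lowest Adenine level in Adenine 3. None of them passed (edgeR adjusted p = 0.274, 0.266 and 0.301). Negative were Sost (-1.65), Mgp (-0.29), Sox9 (-0.11), Bmp2 (-0.11) and Alpl (-0.04). Resident macrophage markers summed to 358 CPM in Adenine 3 and 174 to 231 CPM in Adenine 1, 2 and 4, against 251 to 391 CPM in Sham. The median log2 fold change of that list was -0.40, and -0.63 without Adenine 3. Its genes Cbr2 and Gas6 were lower in all 4 Adenine libraries than in any Sham library. Cbr2 had -0.95 (SE 0.22), and DESeq2 called it lower (adjusted p = 0.0216), while edgeR did not (0.142). Neutrophil markers summed to 14.0 CPM in Adenine 3 and 9.01 to 14.1 CPM in Adenine 1, 2 and 4, against 3.83 to 7.53 CPM in Sham. Platelet markers summed to 46.5 CPM in Adenine 3 and 18.1 to 21.1 CPM in Adenine 1, 2 and 4, against 19.2 to 26.7 CPM in Sham, with Gp1bb at 0 in all 8. Of that sum Pf4 made up 39.3 CPM in Adenine 3, 8.87 to 13.6 in the other Adenine libraries and 14.1 to 21.5 in Sham. Itga2b had 3.22 CPM in Adenine 3, 5 to 7.28 in the other Adenine libraries and 2.51 to 3.86 in Sham. Epithelial markers summed to 20.8 CPM in Adenine 3 and 9.64 to 15.8 CPM in Adenine 1, 2 and 4, against 6.67 to 11.7 CPM in Sham. Krt18 made up 14 CPM of it in Adenine 3, 1.71 to 3.7 in the other Adenine libraries and 2.06 to 2.61 in Sham. Cdh1 had 2.55 CPM in Adenine 3, 3.08 to 5.75 in the other Adenine libraries and 1.49 to 3.71 in Sham. Skeletal muscle markers summed to 859 CPM in Adenine 3 and 689 to 1760 CPM in Adenine 1, 2 and 4, against 890 to 2250 CPM in Sham. Nearly all of this sum was Acta1 and Ckm, with 523 and 325 CPM in Adenine 3. The sum of the adipocyte markers was nearly all Fabp4, and of the fat cell genes on that list Adipoq had 1.22 to 3.48 CPM and Plin1 1.24 to 5.01 CPM in Adenine, against 0.745 to 16.1 CPM and 1.19 to 9.93 CPM in Sham.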

How the data were processed

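Heart RNA was sequenced in 4 Adenine and 4 Sham libraries. Per the labels' protocols, TriFast served for RNA extraction and the NEBNext Ultra kit for library preparation. FastQC 0.11.9, STAR 2.7.6a and the build GRCm38.p6 appear in the submitters' processing notes. No source used here gives the program, annotation or strand rule by which reads were counted. The authors deposited unscaled whole-number counts for each gene. Total counts ran from 15626620 to 33886385.

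Counts were fitted in R 4.3.3 with edgeR 4.0.16, after its low-count filter by group, with TMM factors and the quasi-likelihood F-test for diet, adjusted by the Benjamini-Hochberg method over 20093 genes. All 10 members passed the filter. Standard errors were derived from the F statistic. Log2 levels were taken from counts with an offset of 0.5 reads. Alternatives were DESeq2 size factors, upper-quartile factors, limma-voom from limma 3.58.1, the Wald test of DESeq2 1.42.0, no filter, the replicate number as a block, each library left out, and CPM without scaling factors. The fits were first tested on simulated counts.

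Replicates within a group differed by more than sampling noise (chi-square per gene of 18.7 to 86.1), so each was kept. Coordinates and transcript lengths came from GENCODE on GRCm38, with lengths of the transcript ranked first by APPRIS. The members, lists and rules were chosen with earlier results of these data known. Named were the 10 members, 10 direct partners, the 8 genes likest the members' median profile and the 3 likest Spp1 and Mmp12. From each of the 14 related lists, every called gene or else the 2 of lowest p were named. The lists of cell type markers were outside this rule. Ocstamp, Calcr, Flt3 and the other genes given were chosen after their values were seen.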

Additional observations from a re-analysis of the deposited data

Results flagged for a closer look

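In 5 of the 20 groups of 4 libraries looked at (10 genes in 2 diets), Dixon's criterion flagged 1 library. Its gap to the nearest of the other 3 took up most of the range in CPM. For normally distributed values chance gives about 1 such group in 20. That rate cannot be taken to hold here, since the criterion was applied to CPM and not to log2 levels. The 10 genes were also picked with these levels in view, so nothing is read from the count of 5. In all 5 groups the flagged library was Adenine 3. Its level was 2730 CPM for Spp1, 25.3 CPM for Atp6v0d2, 170 CPM for Lgals3, 55.7 CPM for Trem2 and 129 CPM for Fabp5. The 5 genes share these libraries, so they are not independent of each other.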

How the results depend on the processing

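With all libraries edgeR called 8 genes higher and 0 lower, with 2181 higher and 1333 lower at an unadjusted p under 0.05. Upper-quartile factors gave 18 and 1, DESeq2 153 and 175, limma-voom 5 higher, no filter 1 lower, the replicate block 16 and 16, and leaving out each library 1 to 37 higher and 0 to 30 lower. Of the 10 genes 1 was called in the main test, 2 with upper-quartile factors or no filter, 6 in DESeq2, 0 in limma-voom, 5 with the replicate block, and 0 to 6 with a library left out: 0 without Adenine 1 or any Sham library, 1 without Adenine 2, and 6 without Adenine 3 or Adenine 4. Their median log2 fold change was 2.05 to 3.68 with a library left out. The library numbers did not pair the samples (correlations of deviations 0.081, -0.505, -0.176 and 0.31). Direction turned without Adenine 3 for Trem2 (-0.30), Cd9 (-0.41) and Fabp5 (-0.46), and in limma-voom and with the replicate block for Cd9 (-0.07 and -0.06) and Fabp5 (-0.04 in both); the cause was not tested. With a library left out these ran from -0.30 to 1.52 for Trem2, -0.41 to 0.32 for Cd9 and -0.46 to 0.33 for Fabp5. In the other 133 of 140 member fold changes the direction held. The median of all genes shifted from 0.0533 to 0.195 with upper-quartile factors and to 0.175 with no filter. Depth limits Atp6v0d2, at 18 to 20 reads in each Sham library. Mean CPM in Adenine without scaling factors stayed within 1 SD of the scaled mean for 10 of 10 genes. That SD, of the 4 Adenine libraries, was wide. For Spp1 it was 1330 CPM, beside means of 729 CPM with and 764 CPM without scaling factors. A shift could hardly have exceeded it, so nothing is read from this count.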
